A study of Mus musculus with 6 samples.

Results

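The genes described here are 4 adult globin genes, Hbb-bs, Hbb-bt, Hba-a1 and Hba-a2, and 3 other genes of the red cell, Alas2, Slc4a1 and Bpgm. They were taken by symbol, and each symbol occurs once among the 54093 genes of the expression table. All 7 passed a filter of a mean of at least 1 FPKM (fragments scaled by gene length and by library size) over the 6 libraries, which 12627 genes passed. Their RNA was read in whole right atrium (RA), where it serves as a measure of blood left in the tissue.

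RNA came from wild-type C57BL/6 mice, male or female, at postnatal day 21 (P21), with 3 libraries from sham-operated mice and 3 from mice with volume overload (VO). VO was made at P7 by aortocaval fistula (ACF) surgery, in which the abdominal aorta and the inferior vena cava are joined by a puncture, and sham mice were operated on at the same age. No group carried a transgene, and the shunt was checked in mice that the sources do not tie to the sequenced libraries. The labels do not say that each library is a separate animal, so p-values measure the spread between these libraries, which may in part be technical. Whether the atria were rinsed of blood before freezing is not given in the sources used here.

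The 6 libraries held 15963082 to 17237903 fragments on genes, so depth varied little. The atrial markers Nppa, Myl7, Myl4, Sln, Myh6, Actc1, Tnnt2 and Ryr2 summed to 19537 to 25590 FPKM in sham and to 9067 to 16874 FPKM in VO, lowest in VO 1. Of 3 ventricular markers, the regulator Irx4 was at or below 0.259 FPKM in every library, while the myosin light chain Myl2 was at 60.4, 2.02 and 56.0 FPKM in sham 1 to 3 and at 6.95, 1.54 and 20.6 FPKM in VO 1 to 3. Myl3, a light chain of ventricle and slow muscle, was at 117 to 246 FPKM in sham and 83.8 to 121 FPKM in VO (log2 fold change -0.77, limma adjusted p = 0.408). The part of ventricular RNA in the results below was not tested.

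Adult hemoglobin is built from a pair of alpha chains, encoded in mice by Hba-a1 and Hba-a2, and a pair of beta chains, encoded by Hbb-bs and Hbb-bt in C57BL/6. Each chain holds a heme group, whose synthesis in red cell precursors begins with the enzyme encoded by Alas2. Mature red cells have no nucleus, but the youngest circulating cells, the reticulocytes, still carry globin RNA. Globin RNA in a solid organ is therefore a familiar sign of the blood that stayed in its vessels and chambers.

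The members of each globin pair could hardly be told apart by their coding sequence, which is why the last exon of all 4 is shown. In the GENCODE M21 transcripts, Hba-a1 and Hba-a2 shared 425 of 426 coding bases and all 142 residues, and Hbb-bs and Hbb-bt shared 440 of 441 coding bases and all 147 residues. The stretches below run from coding base 321 to the last base before the stop codon, within exon 3, on GRCm38. The capital marks the single differing base, C381T between Hba-a1 and Hba-a2 and C417T between Hbb-bs and Hbb-bt, counted from 1 at the A of the start codon.
Hba-a1, chr11:32284283-32284388, + strand: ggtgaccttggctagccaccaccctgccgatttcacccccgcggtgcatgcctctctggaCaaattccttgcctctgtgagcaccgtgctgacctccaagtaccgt
Hba-a2, chr11:32297100-32297205, + strand: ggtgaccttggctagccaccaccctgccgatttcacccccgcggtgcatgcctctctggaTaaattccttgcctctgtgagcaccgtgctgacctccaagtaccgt
Hbb-bs, chr7:103826668-103826788, - strand: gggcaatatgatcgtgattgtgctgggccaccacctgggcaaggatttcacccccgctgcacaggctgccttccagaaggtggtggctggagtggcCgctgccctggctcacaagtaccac
Hbb-bt, chr7:103812659-103812779, - strand: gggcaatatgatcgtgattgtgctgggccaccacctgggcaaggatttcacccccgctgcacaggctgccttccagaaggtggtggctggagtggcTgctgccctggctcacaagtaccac
Both changes leave the amino acid as it is. Fragments from these stretches fit both copies, or carry 1 base that separates them. Of all 150-base windows along the transcripts, 48.4% of those of Hba-a1 and 65.7% of those of Hba-a2 also occurred in the other copy. The corresponding shares were 58.7% for Hbb-bs and 50.7% for Hbb-bt. How the authors counted fragments that fit both copies is not given in the sources used here, so levels of single copies are uncertain and the sum of each pair is given beside them. In Alas2, 8.63% of windows also occurred in transcripts of its neighbor Apex2, and in Slc4a1 and Bpgm 0 windows occurred elsewhere.

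Promoters are shown for a beta globin gene, an alpha globin gene and Alas2, whose RNA was highest in the same 2 libraries as that of the other members. They are the 250 bases before the RefSeq start site (GRCm38.p6), written along the gene, and capitals mark matches to the GATA motif AGATAA, the CACCC box CCACACCC and the CCAAT box CCAAT on either strand.
Hbb-bs, chr7:103827929-103828178, - strand: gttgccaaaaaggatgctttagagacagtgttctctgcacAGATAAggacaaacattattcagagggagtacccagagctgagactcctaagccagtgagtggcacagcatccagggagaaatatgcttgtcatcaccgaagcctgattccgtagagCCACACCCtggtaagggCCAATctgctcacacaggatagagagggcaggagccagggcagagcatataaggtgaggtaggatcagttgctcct
Hba-a1, chr11:32283422-32283671, + strand: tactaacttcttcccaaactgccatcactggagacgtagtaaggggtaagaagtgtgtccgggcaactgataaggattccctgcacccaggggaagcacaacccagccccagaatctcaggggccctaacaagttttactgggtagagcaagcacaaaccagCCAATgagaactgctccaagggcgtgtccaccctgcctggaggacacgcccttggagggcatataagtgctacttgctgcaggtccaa
Alas2, chrX:150547167-150547416, + strand: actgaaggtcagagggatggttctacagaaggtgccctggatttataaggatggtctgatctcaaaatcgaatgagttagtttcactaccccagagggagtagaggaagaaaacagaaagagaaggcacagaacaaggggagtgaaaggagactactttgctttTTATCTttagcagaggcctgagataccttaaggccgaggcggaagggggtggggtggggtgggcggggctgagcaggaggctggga
Motifs were searched in windows that also hold the 50 bases after the start site, which were at hand for 6 of the 7 genes, and no matches overlapped each other. AGATAA stood 210 bases upstream of the start in Hbb-bs and, on the opposite strand and therefore written TTATCT, 86 bases upstream in Alas2, while 11.2% of 32851 mouse windows held it. CCACACCC stood 93 bases upstream in Hbb-bs alone, against 3.56% of all windows. CCAAT was found in 5 of the 6 windows, Alas2 being the exception, against 37.4% of all windows. Only these exact letters were searched, so near forms, such as the unmarked tgataa in the Hba-a1 promoter, were not counted. A promoter without a match may therefore still hold another form of a motif. These are descriptions of the sequence and not sites shown to be used.

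In none of the 7 genes did VO differ from sham by more than the libraries of each group differed among themselves. All 7 were highest in the libraries VO 1 and sham 1, 1 of each group, and the lower of these stood from 1.56-fold (Slc4a1) to 5.24-fold (Hbb-bt) above the highest of the other 4 libraries. The groups overlapped in 7 of 7 genes, whereas they were separate in 21.2% of all tested genes. In limma's test with Benjamini-Hochberg adjustment 0 of 7 passed 0.05, as did 0.00792% of all genes, which is the single gene Nppb. Without adjustment 0 of 7 were below 0.05, against 3.89% of all genes higher and 8.08% lower in VO. Fold changes of Hbb-bt, Alas2, Bpgm and Slc4a1 were so near 0 that their sign turned with the scaling between libraries. The median log2 fold change was -0.06 over the 7 genes and -0.01 over all tested genes. In bulk tissue, fewer red cells and less RNA in each red cell cannot be told apart.

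**Figure D1:**
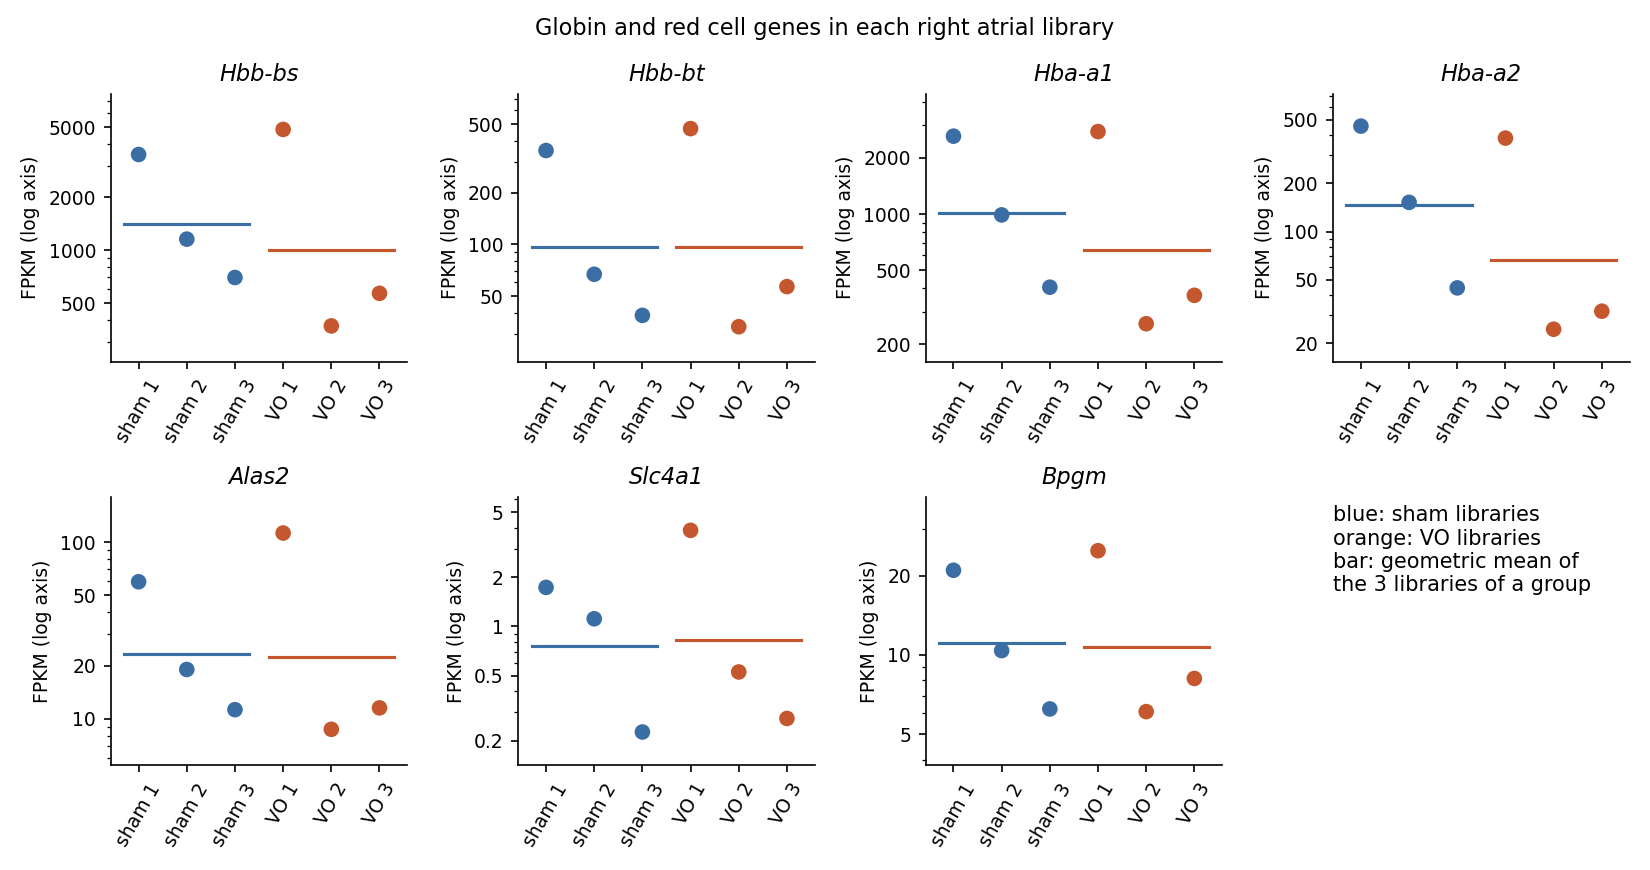
FPKM of each of the 7 genes (y axis, log scale) in the 3 sham (blue) and 3 VO (orange) libraries; points are libraries and bars are the geometric mean of each group. In every panel VO 1 and sham 1 are the 2 highest points, and the group bars lie well within the spread of the points.

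Hbb-bs (ENSMUSG00000052305, chr7:103826534-103828096, - strand) is the beta globin gene to which most beta globin fragments were assigned here. It was read at 3490.1, 1154 and 698 FPKM in sham 1 to 3 and at 4846, 371 and 568 FPKM in VO 1 to 3. The 2 highest libraries, VO 1 and sham 1, were from different groups, and the level spanned 13.1-fold over the 6. Group levels were 1781 ± 1498 FPKM in sham and 1928 ± 2529 FPKM in VO (SD, n = 3). The arithmetic mean was higher in VO, through VO 1, while the mean of log2 values, on which the test rests, was lower. The log2 fold change was -0.49 with a standard error of 1.02 (limma adjusted p = 0.833). Its 95% interval, from 0.135-fold to 3.76-fold, spans both a large fall and a large rise.

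Hbb-bt (ENSMUSG00000073940, chr7:103812524-103813996, - strand) is the second adult beta globin gene. Its levels were 351, 66.9 and 38.6 FPKM in sham 1 to 3 and 471, 33.2 and 56.7 FPKM in VO 1 to 3. VO 1 and sham 1 stood at least 5.24-fold above the other 4 libraries, the widest such gap of the 7 genes. The log2 fold change was -0.01 with a standard error of 1.14 (limma adjusted p = 0.997), within an interval from 0.154-fold to 6.40-fold.

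Hba-a1 (ENSMUSG00000069919, chr11:32283511-32284465, + strand) encodes alpha globin. It was read at 2614.5, 990 and 406 FPKM in sham 1 to 3 and at 2767 FPKM in VO 1, 258 FPKM in VO 2 and 367 FPKM in VO 3. Sham 1 and VO 1 differed by only 1.06-fold here, while sham 1 was 6.44-fold above sham 3. Group levels were 1337 ± 1145 FPKM in sham and 1131 ± 1418 FPKM in VO (SD, n = 3), a log2 fold change of -0.67 with a standard error of 1.00 (limma adjusted p = 0.760). The interval ran from 0.123-fold to 3.24-fold.

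Hba-a2 (ENSMUSG00000069917, chr11:32296489-32297298, + strand) encodes the same alpha chain. It was read at 457, 152 and 44.4 FPKM in sham 1 to 3 and at 384, 24.5 and 31.7 FPKM in VO 1 to 3. It was the 1 gene in which sham 1 exceeded VO 1, and it had the widest span, 18.7-fold. Its log2 fold change, -1.12 with a standard error of 1.204, was the largest in size among the 7 genes (limma adjusted p = 0.666). The interval ran from 0.0642-fold to 3.29-fold.

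The globins were also summed over the copies, so that the split of fragments within a pair matters less. It still enters the sums, since FPKM are scaled by length and the copies differ in it. Gene lengths were 812 bases for Hba-a1 and 667 for Hba-a2, and 768 for Hbb-bs and 703 for Hbb-bt. The sums of the 4 globins reached 6912, 2363 and 1187 FPKM in sham 1 to 3. In VO 1 to 3 they reached 8468, 687 and 1023 FPKM. VO thus held both the highest and the lowest library. The log2 difference between groups was -0.57 for the 4 globins (exact permutation p = 0.7), -0.72 for the alpha pair (exact permutation p = 0.6) and -0.46 for the beta pair (exact permutation p = 0.7), where 3 libraries against 3 cannot give a p below 0.1.

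As a share of all fragments on genes, the globins took 0.505% in sham 1, 0.184% in sham 2 and 0.0893% in sham 3. The shares in VO were 0.706% in VO 1, 0.0545% in VO 2 and 0.0802% in VO 3. Counting error was far smaller than these gaps: the 95% Wilson interval was 0.702% to 0.710% in VO 1 and 0.0534% to 0.0557% in VO 2, which covers counting error only. In the most globin-rich library the 4 genes made up 2.56% of the summed FPKM.

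Alas2 (ENSMUSG00000025270, chrX:150547375-150570638, + strand), the red cell form of the first enzyme of heme synthesis, was far lower but followed the same libraries. Its levels were 59.7, 19.0 and 11.2 FPKM in sham 1 to 3 and 113, 8.70 and 11.5 FPKM in VO 1 to 3. VO 1 was 1.89-fold above sham 1, and VO 2 was again the lowest. The log2 fold change was -0.06 with a standard error of 1.03 (limma adjusted p = 0.983), within an interval from 0.179-fold to 5.18-fold.

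Slc4a1 (ENSMUSG00000006574, chr11:102348824-102366203, - strand) encodes band 3, the anion exchanger that dominates the red cell membrane. It was near the filter, with 1.73, 1.11 and 0.226 FPKM in sham 1 to 3 and 3.88, 0.527 and 0.273 FPKM in VO 1 to 3. The lowest library was sham 3, not VO 2, and rested on 18 fragments, for which a Poisson interval allows 10.7 to 28.4. This was the only 1 of the 7 whose log2 fold change was above 0, at 0.12 with a standard error of 1.01 (limma adjusted p = 0.966), or -0.13 with quantile normalization. The interval ran from 0.209-fold to 5.63-fold.

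Bpgm (ENSMUSG00000038871, chr6:34476207-34505613, + strand) encodes bisphosphoglycerate mutase, which makes the small molecule that lowers the oxygen affinity of hemoglobin. It was read at 20.96, 10.4 and 6.23 FPKM in sham 1 to 3 and at 24.9, 6.09 and 8.13 FPKM in VO 1 to 3. The libraries fell in the same order as for Alas2, but the span was 4.09-fold, the narrowest of the 7. The log2 fold change was -0.05 with a standard error of 0.60 (limma adjusted p = 0.977), within an interval from 0.361-fold to 2.60-fold.

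Leaving out single libraries moved these differences widely. Without VO 1 the log2 fold change became -1.62 for Hbb-bs (limma adjusted p = 0.670), -1.72 for Hba-a1 and -2.38 for Hba-a2 (limma adjusted p = 0.668). Without sham 1 the same differences were 0.17 for Hbb-bs, 0.015 for Hba-a1 and -0.30 for Hba-a2. Leaving out both, a choice made after the values were seen, gave -0.97 for Hbb-bs and -1.56 for Hba-a2, each with a limma adjusted p of 0.642, and -0.38 for Slc4a1. The size of the difference, and in 6 of the 7 genes its sign, thus turned on which library was kept.

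**Figure D2:**
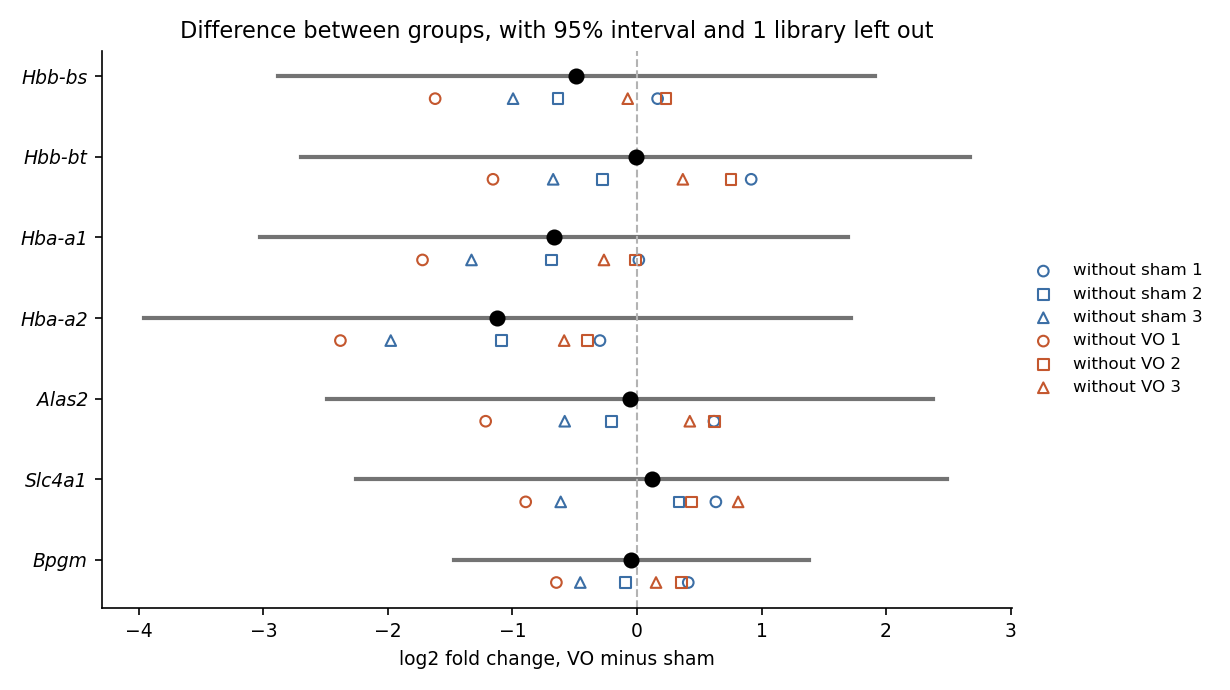
Log2 fold change of VO against sham (x axis) for each gene; black points with gray bars are the estimates from 6 libraries with their 95% intervals from limma, and open symbols are the estimates after 1 library was left out. Every bar crosses 0, and the estimates without VO 1 are the lowest in all 7 genes.

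The spread between libraries of a group was far wider for these genes than for most. The residual SD on the log2 scale, which is what remains after the group means are removed, was 1.64 for Hbb-bs, 1.85 for Hbb-bt, 1.61 for Hba-a1 and 1.95 for Hba-a2. It was 1.67 for Alas2, 1.57 for Slc4a1 and 0.97 for Bpgm. The median over the 12627 tested genes was 0.20 and the 99th percentile 1.73. Bpgm, the least variable of the 7, ranked 329 from the top, which places it among the 2.61% of genes with the widest spread.

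**Figure D3:**
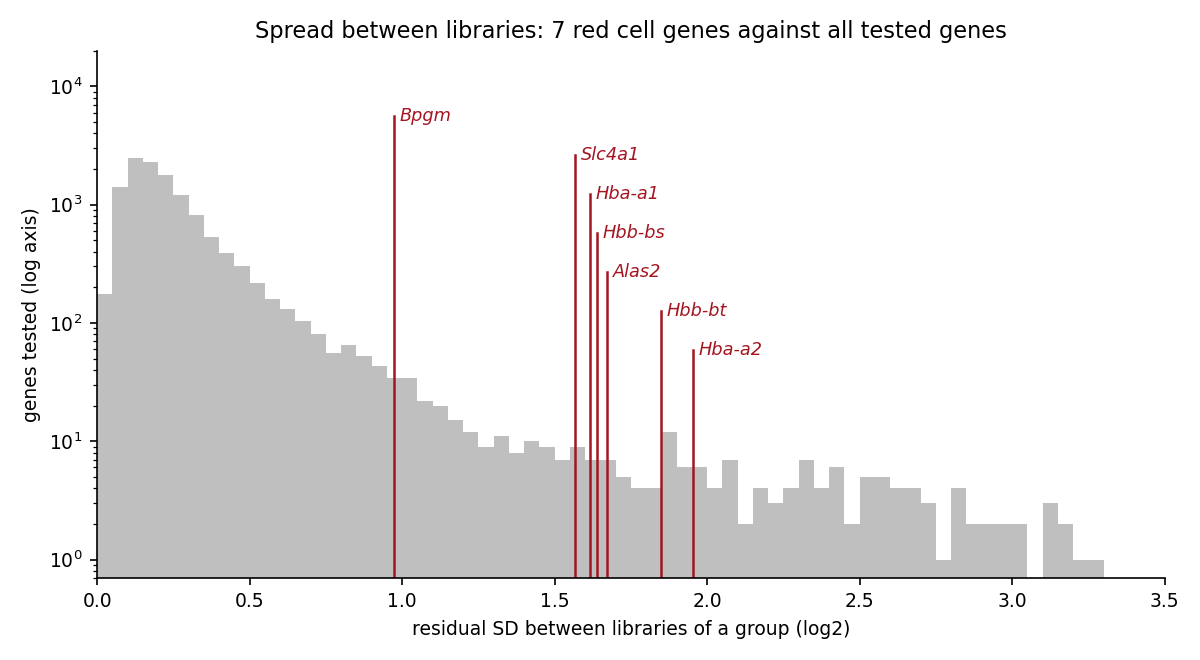
Histogram of the residual SD between libraries of the same group (x axis, log2 units) over the 12627 tested genes (y axis, log scale), with the 7 red cell genes as red lines. The bulk of genes lies near 0.20, and 6 of the 7 red lines lie above 1.5.

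Ratios within a library do not depend on the scaling between libraries, so 6 of them were compared. The alpha to beta ratio was 0.7996, 0.936 and 0.611 in sham 1 to 3 and 0.593, 0.7003 and 0.638 in VO 1 to 3. It stayed within 1.58-fold while the globin sum itself ranged over 12.3-fold. The groups overlapped, and the log2 difference was -0.26 (exact permutation p = 0.3).

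Within the alpha pair, Hba-a1 exceeded Hba-a2 by 5.72-, 6.50- and 9.14-fold in sham 1 to 3 and by 7.20-, 10.6- and 11.6-fold in VO 1 to 3. Hbb-bs exceeded Hbb-bt by 9.95-, 17.2- and 18.1-fold in sham 1 to 3 and by 10.3-, 11.2- and 10.005-fold in VO 1 to 3. The beta ratio therefore set sham 2 and sham 3 above the other 4 libraries. Neither ratio separated the groups (exact permutation p = 0.2 for alpha and 0.4 for beta), and both rest on how fragments common to the copies were split.

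Alas2 relative to the globin sum was the only 1 of the 6 ratios in which the groups did not overlap. Per 1000 FPKM of globin, Alas2 stood at 8.63, 8.04 and 9.47 FPKM in sham 1 to 3 and at 13.3, 12.7 and 11.3 FPKM in VO 1 to 3. The ratio was higher in 3 of 3 VO libraries, 8.72 ± 0.720 in sham and 12.4 ± 1.05 in VO (SD, n = 3), which is 1.42-fold or 0.51 on the log2 scale. The exact permutation p was 0.1, the smallest that 3 against 3 can give, and 0.4 after adjustment over the 6 ratios, so the difference does not pass a threshold of 0.05.

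The counting intervals of the nearest libraries met, with an upper bound of 10.4 in sham 3 and a lower bound of 10.2 in VO 3. When single libraries were dropped, the log2 difference stayed between 0.45 and 0.58. Against single globins, Alas2 was separate and higher in VO relative to Hba-a1, Hba-a2 and Hbb-bs, at 1.52-, 2.09- and 1.35-fold. Relative to Hbb-bt it overlapped, at 0.968-fold. The direction thus held for 3 of the 4 globins. These ratios are not separate support, since Hbb-bs and Hba-a1 make up most of the globin sum and levels of single copies are uncertain.

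Slc4a1 per 1000 FPKM of globin was 0.251, 0.472 and 0.190 in sham 1 to 3 and 0.458, 0.767 and 0.267 in VO 1 to 3 (exact permutation p = 0.3). Bpgm per 1000 FPKM of globin was 3.03, 4.39 and 5.25 in sham 1 to 3 and 2.94, 8.86 and 7.95 in VO 1 to 3 (exact permutation p = 0.4). Both overlapped between groups. The Bpgm ratio was lowest in the 2 libraries richest in globin, sham 1 and VO 1, where Bpgm stood less far above the other libraries than the globins did.

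**Figure D4:**
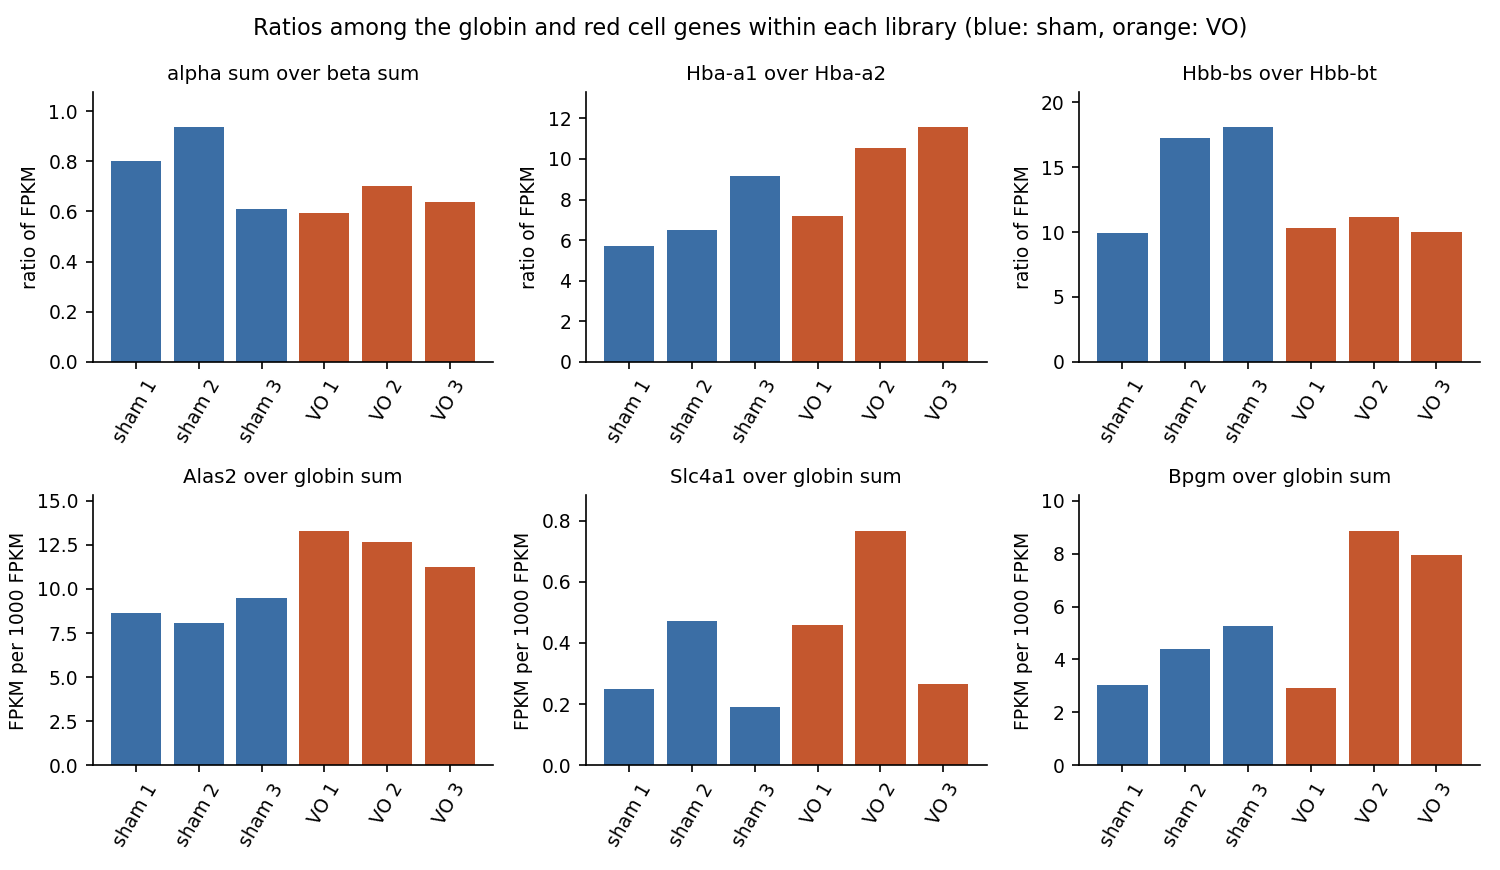
The 6 ratios in each sham (blue) and VO (orange) library, with bars starting at 0; the upper panels are plain ratios of FPKM and the lower panels are FPKM per 1000 FPKM of summed globin. Only in the panel of Alas2 are the 3 VO bars, 11.3 to 13.3, all above the 3 sham bars, 8.04 to 9.47.

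Among other genes of the red cell, some were highest in the same 2 libraries and others were not. Of 16 genes for the red cell membrane and its skeleton, 11 were tested, 0 passed the adjusted test and the median log2 fold change was -0.19. Rhag, Kel and Epb42, which are largely red cell genes, had VO 1 and sham 1 on top at levels of at most 0.488 FPKM. Aqp1, a water channel that endothelium also makes, was at 102 to 112 FPKM in sham and 68.3 to 136 FPKM in VO, and Tmod1, a thin filament cap that heart muscle also uses, at 96.3 to 110.3 FPKM in sham and 66.3 to 96.4 FPKM in VO. Ank1, the erythrocyte ankyrin that striated muscle also expresses, had the lowest unadjusted p of the list at 0.010, with 19.5 ± 1.46 FPKM (SD, n = 3) in sham and 12.6 ± 3.02 FPKM in VO (log2 fold change -0.65, limma adjusted p = 0.400).

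All 12 genes of heme synthesis and mitochondrial iron were tested, and their levels did not follow the globins. VO 1 and sham 1 were the 2 highest libraries in 0 of the 12, the median log2 fold change was -0.16 and 0 passed the adjusted test. Alas1, the form of the first enzyme that all tissues use, was at 17.8 to 19.7 FPKM in sham and 12.1 to 24.3 FPKM in VO. Fech, which inserts iron into heme, was at 44.8 to 53.4 FPKM in sham and 46.6 to 47.4 FPKM in VO. Slc25a38, a mitochondrial carrier for glycine, and Tfrc, the transferrin receptor, were below 0.05 without adjustment, with log2 fold changes of -0.52 (limma adjusted p = 0.345) and -0.40 (limma adjusted p = 0.356).

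Of 18 erythroid regulators and late erythroid genes, 16 were matched by symbol and 6 tested, of which 0 passed with or without adjustment (median log2 fold change -0.03). The transcription factors Gata1 and Gfi1b were at or below 0.422 FPKM in every library. Klf1, a factor of adult globin expression, was at or below 0.114 FPKM and was not tested. It rested on 2, 3 and 1 fragments in sham 1 to 3 and on 0 in each VO library, too few to compare the groups. Across the 16, VO 1 and sham 1 were the 2 highest libraries in 9, against 5.28% of all tested genes. Among these 9 were Gata1 and Gfi1b, which were under the filter, and the tested genes Bnip3l and Car2. Tal1, Zfpm1 and Prdx2, also tested, were not among them.

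The embryonic globins Hba-x, Hbb-y, Hbb-bh1 and Hbb-bh2 were listed at 0 in all 6 libraries. The theta globin Hbq1b was at 0.532, 0.560 and 0.0847 FPKM in sham 1 to 3 and at 3.497 FPKM in VO 1, 0 in VO 2 and 0.252 FPKM in VO 3. Hbq1b was under the filter and not tested, and its near copy Hbq1a reached at most 0.532 FPKM.

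The mean log2 level of the 4 globins was correlated with each of 545 other genes that varied at least 0.5 times as much over the 6 libraries. Among the 10 nearest, Ube2l6, an enzyme of ubiquitin and ISG15 conjugation, had a Pearson r of 0.899, Alox12, the platelet 12-lipoxygenase, of 0.894 and Lrat, which esterifies retinol, of 0.882. The lncRNA Gm6634 was at 0.859, and Snord58b, Snora17, Mir339 and Gm25908 are short RNAs (r from 0.861 to 0.928) that rested on at most 7 fragments in any library. These 6 points share the 2 libraries at the top: without sham 1 and VO 1 the r of Ube2l6 was 0.602, that of Alox12 -0.0041 and that of Lrat -0.23. It was 0.439 for Gm6634 and 0.713 for Mir339, and stayed at 0.923 to 0.933 for Snord58b, Gm25908 and Snora17. Of the red cell genes outside the mean, Alas2 stood at 0.997, Bpgm at 0.877 and Slc4a1 at 0.632 without these libraries.

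VO 1 and sham 1 were the 2 highest libraries in 7 of the 7 genes and in 5.28% of all tested genes. Both stood at least 2-fold above the other 4 in 16 tested genes, 0.127% of those tested. Of these 16, 6 were the red cell genes other than Slc4a1, where the gap was 1.56-fold, and 10 were other genes. Among those were S100a8 of neutrophils, the platelet genes Gp9, Tubb1, Ppbp and Itga2b, and Lrat, Alox12, Mir339 and Mir466i.

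Summed markers of platelets and of neutrophils were also highest in VO 1 and sham 1, in other proportions. The 13 platelet genes summed to 141, 29.5 and 41.6 FPKM in sham 1 to 3 and to 88.4, 33.9 and 36.2 FPKM in VO 1 to 3, with sham 1 above VO 1, the reverse of the globin sum. The 10 neutrophil genes summed to 13.0, 1.51 and 6.63 FPKM in sham 1 to 3 and to 80.7, 5.94 and 2.23 FPKM in VO 1 to 3. VO 1 and sham 1 were both on top in 10 of the 13 platelet and 6 of the 10 neutrophil genes. The exceptions among neutrophil genes were Ngp, Mmp8, Csf3r and Lcn2. In sham 1 the neutrophil sum came largely from S100a8 and S100a9, at 4.54 and 4.56 FPKM. In both lists 0 genes passed the test, among 8 tested platelet and 5 tested neutrophil genes, with median log2 fold changes of -0.51 and 0.93. T cell and B cell markers were low throughout, and highest in VO 1. The 5 T cell genes summed to 2.63 FPKM in VO 1 and to 0.369 to 0.873 FPKM in the other libraries. The 4 B cell genes summed to 7.71 FPKM in VO 1 and to 2.10 to 3.52 FPKM in the others.

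The 7 macrophage genes summed to 227, 174 and 156 FPKM in sham 1 to 3 and to 444, 175 and 203 FPKM in VO 1 to 3. VO 1 and sham 1 were thus the 2 highest for this sum too, and for 3 of its 7 genes, C1qa, C1qb and C1qc. Csf1r, by contrast, was lowest in sham 1, at 18.3 FPKM. Cd68, Csf1r and Adgre1 were higher in every VO library than in any sham library, where groups were separate in 21.2% of all tested genes. Of the 7, 0 passed the adjusted test. The 5 endothelial genes summed to 173 to 195 FPKM over the 6 libraries. VO 1, richest in globin, was also the library lowest in the atrial markers. It was highest in the neutrophil, macrophage, T cell, B cell and proliferation lists. Sham 1, by contrast, was the highest of all in the atrial markers. The part of any of these lists in the levels of the red cell genes was not tested.

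**Figure D5:**
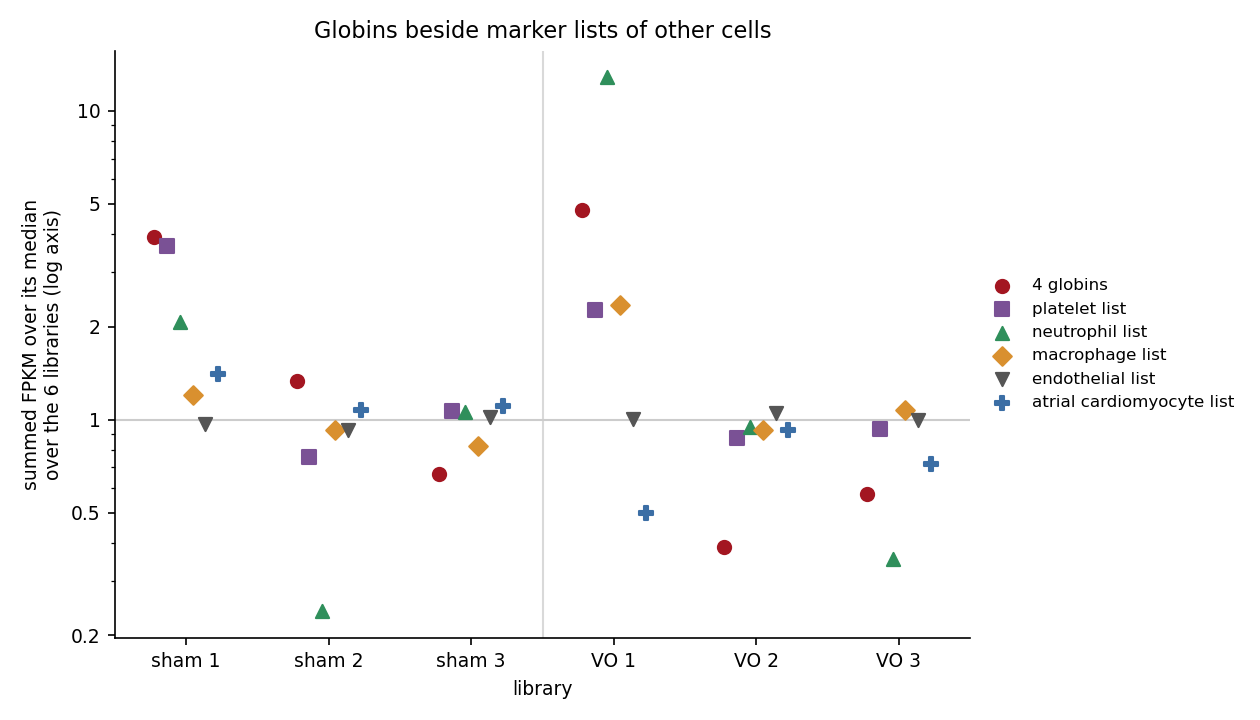
Summed FPKM of the 4 globins and of 5 marker lists in each library, divided by the median of that sum over the 6 libraries (y axis, log scale); symbols are lists. Globins, platelet and neutrophil lists are all above 2 in both sham 1 and VO 1, while the endothelial list stays near 1 throughout.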

How the data were processed

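The authors sequenced RNA of 6 right atrial libraries, 3 sham and 3 VO, and deposited FPKM per gene. Per the labels and the submitters' processing notes, reads were aligned with HISAT2 2.0.5 and counted with featureCounts 1.5.0-p3 on GRCm38; the authors tested with DESeq2, which was not repeated, since the file holds FPKM. A single incomplete line was left out. Coordinates were those of GENCODE M21 for 98.4% of 54059 shared genes. Each FPKM times gene length was a whole multiple of 1 step per library for 100% of values above 0 (tolerance 1e-06), and dividing by that step gave fragments and depth.

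Median-of-ratios factors were 1.00 in every library, so the deposited FPKM were already on a common scale and scaling changed no result. FPKM were filtered at a mean of 1 and fitted as log2(FPKM + 0.1) with limma 3.58.1 (lmFit, eBayes with trend; R 4.3.3), VO against sham, two-sided, with Benjamini-Hochberg adjustment over 12627 genes. Fold changes are on that scale, which understates the change of low genes. Sums and ratios were compared by exact permutation with scipy 1.17.1. The fit was checked on simulated data, where it called 92 of 100 genes changed 2-fold, 98 of 100 changed 4-fold and 19 of 12427 unchanged genes. Every simulated gene had the same low dispersion between libraries, far below that of the red cell genes described here. These rates therefore do not hold for the red cell genes.

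The 7 genes and the gene lists were chosen with earlier results of these data known. Named beside the 7 are genes of each list below an unadjusted 0.05 or of high level, and the 10 genes nearest to the globin mean by Pearson r. Some genes that the rule names are not reported here. Genes named for their place among the red cell, platelet and neutrophil genes were named after their values were seen. Alternatives were pseudocounts, filters, TPM with and without the 7 genes in the total, quantile normalization, eBayes without trend, voom on recovered fragments, the replicate block and libraries left out; leaving out both libraries numbered 1 was added after the values were seen. Over all tested genes, same-numbered sham and VO libraries did not deviate together (r = -0.11, 0.01 and -0.03), so the numbers were not taken as pairs. The 7 genes differ from that: in each of them both libraries numbered 1 were the highest.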

Additional observations from a re-analysis of the deposited data

How the results depend on the processing

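No alternative brought any of the 7 genes below an adjusted p of 0.05, and the lowest adjusted p under any was 0.564. Log2 fold changes near 0 changed sign with the scaling. With TPM they were 0.13 for Hbb-bt, 0.083 for Alas2 and 0.093 for Bpgm, and with TPM and the 7 genes left out of the total 0.13, 0.085 and 0.095. TPM moved the median of all genes from -0.01 to 0.13 and turned the unadjusted split from 491 higher and 1020 lower to 1085 higher and 488 lower. With quantile normalization they were 0.21 for Hbb-bt, 0.13 for Alas2, 0.017 for Bpgm and -0.13 for Slc4a1, and with voom 0.0082 for Hbb-bt. Without both libraries numbered 1, Slc4a1 was at -0.38; the cause of the voom and quantile changes was not tested.

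With each library left out in turn, log2 fold changes ranged from -1.62 to 0.23 for Hbb-bs, from -1.16 to 0.92 for Hbb-bt, from -1.72 to 0.015 for Hba-a1, from -2.38 to -0.30 for Hba-a2, from -1.22 to 0.62 for Alas2, from -0.89 to 0.81 for Slc4a1 and from -0.65 to 0.41 for Bpgm. The globin sum ranged from -1.68 to 0.13, the alpha pair from -1.79 to -0.02 and the beta pair from -1.59 to 0.27. Unadjusted p-values below 0.05 arose for Hba-a2 and Hbb-bs without VO 1 (0.034 and 0.045 from limma) and without both libraries numbered 1 (0.043 and 0.027 from limma). None of the 6 ratios changed direction.

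Over all genes, 1 gene passed adjustment. The count was 2 with a pseudocount of 1, 3 with a filter of 0.1 FPKM, 3 with eBayes without trend, and 0 with quantile normalization, with the replicate block, without both libraries numbered 1 and without each library in turn. Unadjusted, 1511 genes were below 0.05, 932 with the replicate block, 964 without both libraries numbered 1 and 855 to 1998 with each library left out. The replicate block left every log2 fold change of the 7 genes as it was and 0 of 7 below 0.05, the lowest unadjusted limma p being 0.074 for Hba-a2. It lowered the standard error of each of the 7, from 1.14 to 0.34 for Hbb-bt, from 1.02 to 0.43 for Hbb-bs and from 1.03 to 0.39 for Alas2. In the main fit, with 3 libraries per group and residual SDs up to 1.95, several-fold differences here could not be resolved, whatever the depth.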

Other observations

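Genes that clear hemoglobin and heme did not follow the globins. Of 11 such genes 10 were tested, 0 passed with or without adjustment, and VO 1 and sham 1 were the 2 highest libraries in 1 of the 11, Ftl1. Hmox1, the inducible heme oxygenase, was at 8.70, 6.10 and 5.93 FPKM in sham 1 to 3 and at 11.99, 7.11 and 10.6 FPKM in VO 1 to 3, a log2 fold change of 0.50 (limma adjusted p = 0.423). Cd163, the macrophage receptor for hemoglobin bound to haptoglobin, was at 6.07 to 7.54 FPKM in sham and 6.39 to 9.04 FPKM in VO. Hp, haptoglobin itself, was at 20.9 FPKM in VO 3 and at 0.191 to 2.30 FPKM in the other 5 libraries, so its log2 fold change of 2.36 (limma adjusted p = 0.467) rested on that library, which was among the lowest in globin.

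Globins made by the tissue itself behaved otherwise than those of red cells. Mb, the myoglobin of heart muscle, was at 1973, 1343 and 1420 FPKM in sham 1 to 3 and at 768, 1319 and 1173 FPKM in VO 1 to 3. The groups did not overlap, but the log2 fold change of -0.55 did not pass the test (limma adjusted p = 0.424). Its lowest library was VO 1, the highest in Hbb-bs. Cygb, the cytoglobin of fibroblast-like cells, was at 29.9 to 35.7 FPKM in sham and 33.8 to 38.1 FPKM in VO, and the neuronal Ngb was at or below 0.298 FPKM. The 6 genes of proliferating cells summed to 20.1 FPKM in VO 1 and to 3.45 to 4.67 FPKM in the other 5 libraries, with 0 of 3 tested genes below 0.05.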
